A study of Sus scrofa with 16 samples.

Results

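The 10 genes described here are enzymes that remove reactive oxygen species, a redox-sensitive kinase and a metal-binding protein, read in the pituitary RNA of pigs. They were chosen by symbol as CAT, SOD1, SOD2, SOD3, GPX1, GPX3, GPX4, PRDX1, MAP3K5 and MT3, and all 10 had a row among the 25880 genes of the count table. PRDX1 and MAP3K5 took their symbol from a table of gene names. The libraries came from 16 female Puławska pigs. Replicates 1 to 8 belong to the low feed conversion group (LFC) and replicates 9 to 16 to the high one (HFC), where a high value means more feed used for the same gain in body weight. The animals were unrelated, came from several farms and were all housed and fed alike at a test station, with no treatment. The labels state 3 months for every animal, while the methods describe older animals at slaughter. Whole glands were homogenised, so each library mixes the anterior, intermediate and posterior lobes in unknown shares. The labels' extraction text speaks of fat samples, but the libraries hold pituitary hormone RNA: GH1, the growth hormone gene, lay between 9641 and 132900 CPM and PRL, the prolactin gene, between 276.5 and 81060 CPM.

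Superoxide formed by respiration is turned into hydrogen peroxide by the superoxide dismutases: SOD1 in the cytosol, SOD2 in mitochondria and SOD3 outside the cell. Peroxide is then removed by catalase in peroxisomes, by the selenium-dependent glutathione peroxidases and by the peroxiredoxins. MAP3K5, also called ASK1, is a kinase that is held inactive by reduced thioredoxin and that, once released, starts the p38 and JNK cascades. MT3 is a cysteine-rich metallothionein known mainly from the brain, where it binds zinc and copper.

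Levels are given as CPM, the counts of a gene divided by the library size and brought to a common scale, on library sizes scaled by the trimmed mean of M values (TMM), and fold changes as edgeR log2 values of HFC against LFC with their standard error (SE). CPM carries no correction for transcript length, so levels are compared between libraries and not between genes. Total counts lay between 10.973 and 23.06 M per library. LFC replicate 5 and HFC replicates 13, 14 and 16 stood apart in earlier analyses of these data. They are kept here, and values without them are given beside the results that they move most.

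None of the 10 genes was called different between the groups by edgeR, for which the adjusted p had to be 0.05 or less and the fold 1.3 or more. The same test called 0 of all 14319 genes tested (0.0%), and 834 had an unadjusted p under 0.05, while DESeq2 called 20 of 18794 (0.106%), none of them among the 10. All 10 genes passed the filter on low counts. At an unadjusted p under 0.05 in edgeR there were 2 of the 10, CAT higher and MAP3K5 lower in HFC, beside 5.82% of all genes tested. In one direction the shares over all genes were 4.29% for higher and 1.53% for lower in HFC. CAT, MAP3K5 and MT3 are also on the study's list of oxidative stress genes, which was picked from these same libraries. The 2 of 10 are therefore no independent evidence of an excess. The log2 fold changes of the 10 genes had a median of -0.03, against -0.01 over all genes, with 5 above and 5 below 0. The groups overlapped for each of the 10 genes, as they did for all but 0.021% of genes tested.

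**Figure D1:**
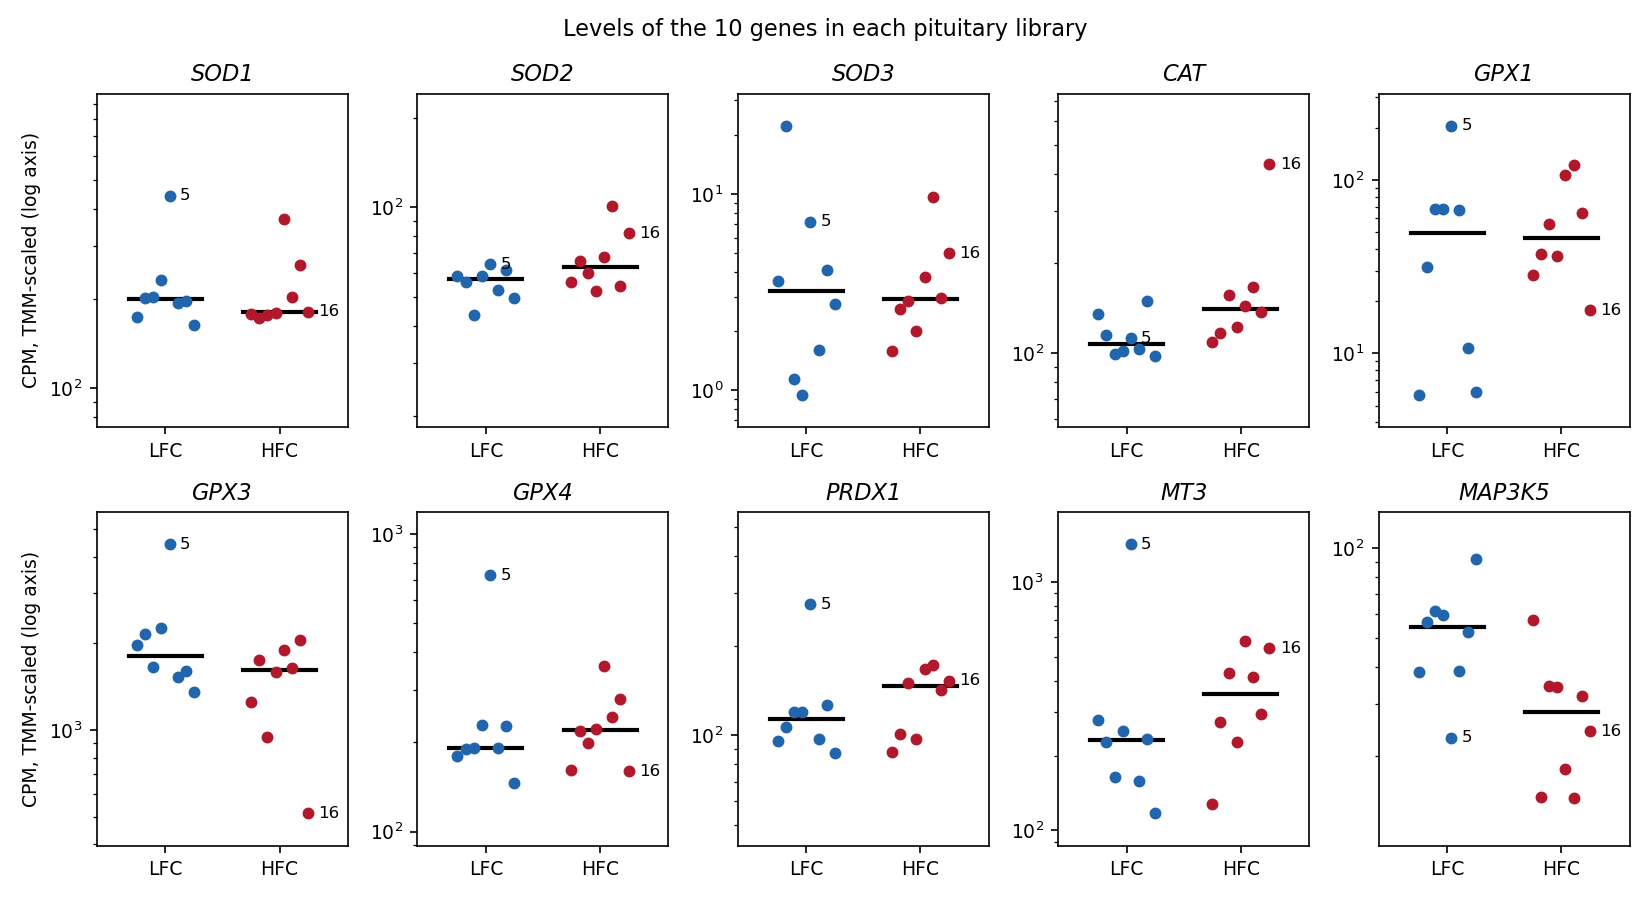
Level of each of the 10 genes in each library, in TMM-scaled CPM on a log axis, with LFC in blue, HFC in red and the group median as a black line. LFC replicate 5 and HFC replicate 16 carry their number. MAP3K5 lay lower in 7 of 8 HFC libraries than the LFC median, and LFC replicate 5 was the highest of all 16 libraries for 6 of the 10 genes.

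MAP3K5 (ENSSSCG00000026041, Sscrofa11.1 chromosome 1, 27380144 to 27600496) gave the largest difference of the 10. In LFC its level ranged from 23.0 CPM in replicate 5 to 91.6 CPM in replicate 8, with a median of 54.5 CPM. In HFC it ranged from 14.4 CPM in replicate 14 to 57.4 CPM in replicate 9, with a median of 28.1 CPM. Thus 7 of 8 HFC libraries lay below the LFC median, HFC replicates 10, 13 and 14 lay below every LFC library, while HFC replicate 9 lay above the LFC median and LFC replicate 5 below the HFC median. The mean level of LFC was 52.7 ± 20.5 CPM (SD, n = 8) against 28.7 ± 14.3 CPM (SD, n = 8) for HFC, 1.84-fold higher in LFC. The log2 fold change was -0.88 (SE 0.30, 95% interval -1.50 to -0.25), with an unadjusted p of 0.00893 and an adjusted p of 0.612 in edgeR. The exact permutation test of the difference in mean log2 CPM (-0.92) gave a two-sided p of 0.0132 (1.0 adjusted over all genes). By this test 4.37% of all genes had a p under 0.05, with 1.82% lower and 2.55% higher in HFC. The difference did not rest on 1 library. Leaving out each library in turn moved the log2 fold change between -1.10 (without HFC replicate 9) and -0.73 (without LFC replicate 8), with an unadjusted p under 0.05 in 16 of 16 fits and adjusted p-values of 0.338 to 1.0. With LFC replicate 5 and HFC replicates 13, 14 and 16 all left out it was -0.73 (SE 0.28, adjusted p = 0.977 in edgeR).

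Catalase (CAT, ENSSSCG00000013302, chromosome 2, 26493626 to 26581452) went the other way. Its level was 97.7, 107.8 and 149.3 CPM at the lowest, the median and the highest of LFC. In HFC the same values were 109.1, 141 and 429.8 CPM. Every HFC library lay above the LFC median, but 5 of 8 lay within the LFC range, and HFC replicate 16 was 3.12-fold above the median of the other HFC libraries. The log2 fold change was 0.60 (SE 0.25, 95% interval 0.08 to 1.12), with an unadjusted p of 0.0258 and an adjusted p of 0.761 in edgeR. The exact permutation p was 0.0252 for a difference of 0.46 in mean log2 CPM (1.0 adjusted over all genes). HFC replicate 16 decided the size. Without it the log2 fold change was 0.26 (SE 0.12, unadjusted p = 0.0552 and adjusted p = 1.0 in edgeR), and without LFC replicate 5 and HFC replicates 13, 14 and 16 it was 0.16 (SE 0.13).

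None of the superoxide dismutases had an unadjusted p under 0.05 in edgeR with all 16 libraries and TMM scaling. SOD1 (ENSSSCG00000021355, chromosome 13, 195326599 to 195335484) ranged from 163.2 to 442.2 CPM in LFC (median 198.8) and from 172.5 to 369.4 CPM in HFC (median 179.7). LFC replicate 5 and HFC replicate 13 were its 2 high libraries, and the other 14 lay between 163.2 and 258.7 CPM. Its log2 fold change was -0.07 (SE 0.21, 95% interval -0.52 to 0.38) and turned to 0.14 without LFC replicate 5. SOD2 (ENSSSCG00000040317, chromosome 1, 7679352 to 7691724) had the narrowest spread of the 10, from 43.5 to 64.4 CPM in LFC (median 57.4) and from 52.4 to 101.4 CPM in HFC (median 63.1). HFC replicates 14 and 16 were the highest, and 4 HFC libraries lay above every LFC library. Its log2 fold change was 0.28 (SE 0.14, unadjusted p = 0.0581 and adjusted p = 0.881 in edgeR), and 0.08 without LFC replicate 5 and HFC replicates 13, 14 and 16. The unadjusted edgeR p of SOD2 was 0.0487 with upper quartile scaling (adjusted p = 0.85), and under 0.05 in 4 of 16 fits that left out a library. SOD3 (ENSSSCG00000028814, chromosome 8, 18796636 to 18804064) was low, from 0.946 to 22.3 CPM in LFC (median 3.19) and from 1.58 to 9.63 CPM in HFC (median 2.90). LFC replicate 2 was 8.08-fold above the median of the other LFC libraries. The log2 fold change of SOD3 was -0.53 (SE 0.59, 95% interval -1.77 to 0.71) and turned to 0.32 without LFC replicate 2.

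Among the glutathione peroxidases, GPX3, the secreted plasma enzyme (ENSSSCG00000036438, chromosome 16, 71980468 to 71989011), had the largest difference. It ranged from 1355 to 4423 CPM in LFC (median 1812) and from 512.7 to 2048 CPM in HFC (median 1620). HFC replicates 9, 11 and 16 lay below every LFC library and LFC replicate 5 lay above every other library. Its log2 fold change was -0.54 (SE 0.28, unadjusted p = 0.0694 and adjusted p = 0.901 in edgeR), or -0.30 without LFC replicate 5 and -0.41 without HFC replicate 16. GPX4 (ENSSSCG00000024052, chromosome 2, 77320464 to 77323938), which reduces lipid peroxides in membranes, ranged from 146.1 to 727.1 CPM in LFC (median 190.8) and from 159.4 to 358.9 CPM in HFC (median 219.9). LFC replicate 5 was 3.81-fold above the median of the other LFC libraries. The log2 fold change of GPX4 was -0.18 (SE 0.30) and turned to 0.25 without that library.

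GPX1, the cytosolic enzyme (ENSSSCG00000033727, chromosome 13, 31916246 to 31917433), varied most, over a 35.5-fold range across the 16 libraries. Its spread within groups was 1.49 (SD of log2 CPM), above that of 98.5% of genes tested, whose median was 0.43. LFC replicates 1, 8 and 7 held 5.77, 6.03 and 10.8 CPM. LFC replicates 3, 4 and 6 held between 67.2 and 68.2 CPM, LFC replicate 2 held 31.5 CPM and LFC replicate 5 held 205 CPM. In HFC the level ran from 17.7 CPM in replicate 16 to 121.3 CPM in replicate 14, with a median of 46.3 CPM, and all 8 libraries lay within the LFC range. The lowest of these values rests on 94 counts, so counting error is small beside the spread. The log2 fold change of 0.02 (SE 0.63, 95% interval -1.32 to 1.35) leaves the difference between groups poorly fixed. Without LFC replicate 5 it was 0.66 (SE 0.57, adjusted p = 0.599 in edgeR), and the difference in mean log2 CPM over all libraries was 0.67 (exact permutation p = 0.387).

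Peroxiredoxin 1 (PRDX1, ENSSSCG00000003914, chromosome 6, 165824594 to 165861430), an abundant cytosolic thiol peroxidase, ranged from 87.1 to 275 CPM in LFC (median 113.3) and from 87.9 to 171.9 CPM in HFC (median 146.1). Its log2 fold change was 0.06 (SE 0.23), and 0.31 (SE 0.15, unadjusted p = 0.0598 and adjusted p = 0.431 in edgeR) without LFC replicate 5. MT3 (ENSSSCG00000024305, chromosome 6, 18634261 to 18636131) ranged from 117 to 277.2 CPM in 7 LFC libraries and stood at 1417 CPM in LFC replicate 5. In HFC it ranged from 127.3 CPM in replicate 9 to 580.3 CPM in replicate 13 (median 354.8). With all libraries its log2 fold change was 0.02 (SE 0.47). Without LFC replicate 5 it was 0.82 (SE 0.28, unadjusted p = 0.00949 and adjusted p = 0.355 in edgeR), in a fit where 11.9% of all genes had an unadjusted p under 0.05. Without LFC replicate 5 and HFC replicates 13, 14 and 16 it was 0.41 (SE 0.26, adjusted p = 0.977 in edgeR).

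**Figure D2:**
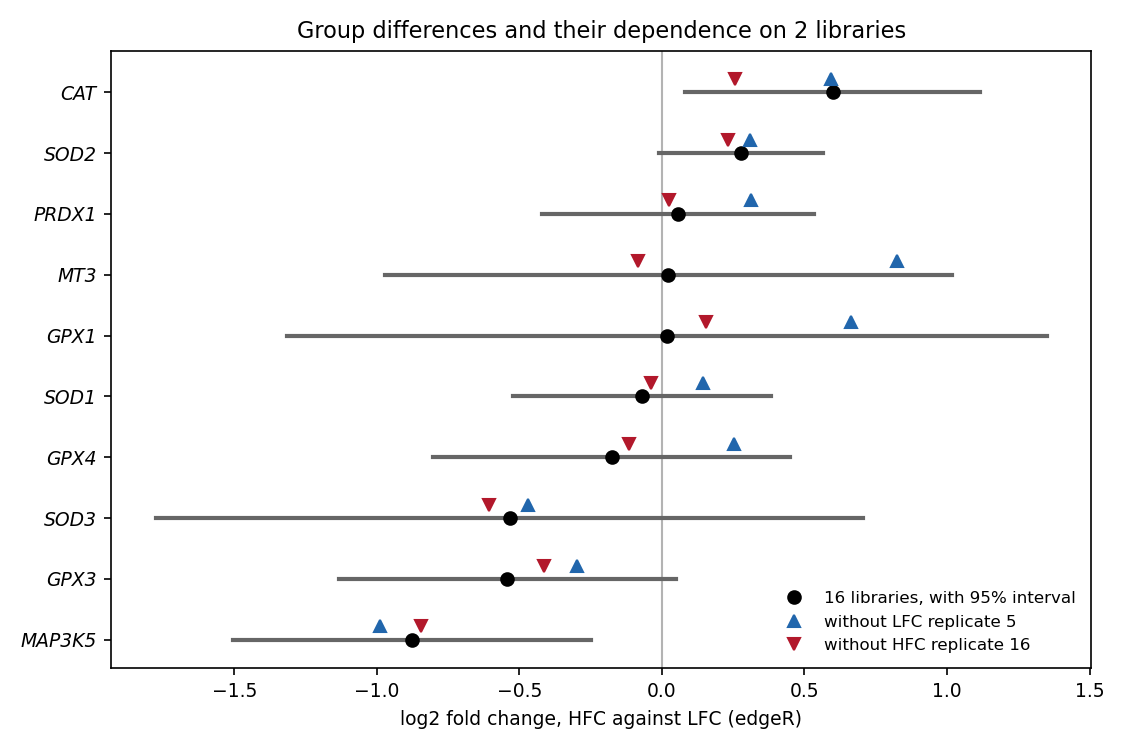
edgeR log2 fold change of HFC against LFC for each of the 10 genes, with all 16 libraries (black points, 95% intervals as lines), without LFC replicate 5 (blue triangles) and without HFC replicate 16 (red triangles). The interval excludes 0 for CAT and MAP3K5, before adjustment for the number of genes. MT3 moved from 0.02 to 0.82 without LFC replicate 5 and CAT from 0.60 to 0.26 without HFC replicate 16, while MAP3K5 stayed between -0.99 and -0.85.

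Single libraries stood out for several genes at once. LFC replicate 5 was the highest LFC library for 7 of the 10 genes and the lowest for MAP3K5. Against the median of the other 7 LFC libraries it held 6.50-fold more GPX1, 6.22-fold more MT3, 2.58-fold more PRDX1 and 2.25-fold more SOD1, and 0.407 times as much MAP3K5. The deviation of GPX1 in this library was above that of 99.0% of genes tested and the deviation of MT3 above 98.9%, while MAP3K5 lay at the 16.3 percentile. The percentiles were 96.0 for GPX4, 89.2 for GPX3, 88.3 for PRDX1, 88.1 for SOD3, 84.6 for SOD1, 57.7 for SOD2 and 55.2 for CAT. High levels in LFC replicate 5 were not particular to these genes, since it was also the highest library for many genes of the related lists below. Its TMM factor was the lowest of all libraries at 0.7513, with the next at 0.9066. HFC replicate 16 held the most CAT of all libraries and the least GPX3, at 0.311 times the median of the other HFC libraries, a deviation at the 2.63 percentile of genes tested. HFC replicate 9 had the most MAP3K5 of HFC, 2.36-fold above the median of the others, and the least MT3, at 0.307 times that median. LFC replicate 8 had the most MAP3K5 of all 16 libraries and the least of 5 of the 10 genes.

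**Figure D3:**
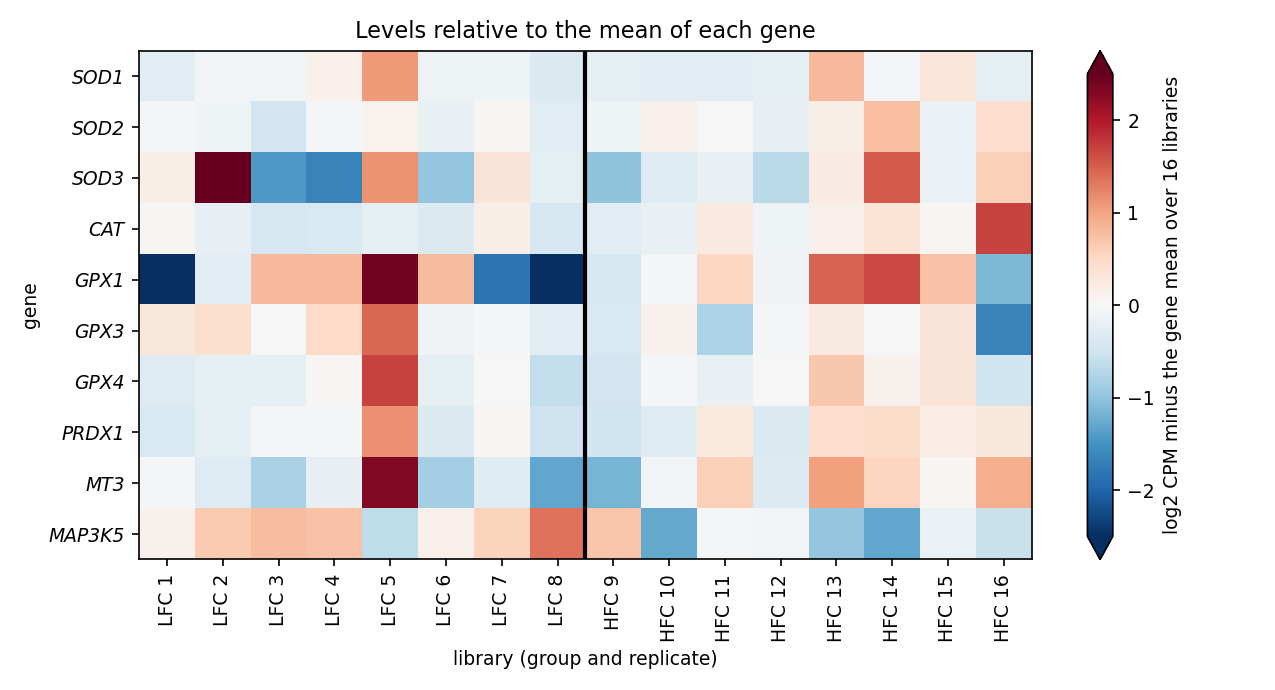
Log2 CPM of each of the 10 genes in each library, minus the mean of that gene over 16 libraries (red above, blue below; the scale ends at 2.5 either way). LFC replicate 5 is red for most enzymes and for MT3 and blue for MAP3K5, and LFC replicate 8 shows the opposite pattern.

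The genes varied together in part. Of 45 pairs, 13 were correlated over the 16 libraries at an adjusted p of at most 0.05 (permutation test, 100000 resamples, two-sided, adjusted over the 45 pairs), 11 positively and 2 negatively. All points share the library, so its composition and scaling enter both axes. Each of the 13 kept its sign when the 2 libraries farthest from the median of the first gene were left out. With group means removed 16 pairs passed, and with ranks (Spearman) 22.

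The positive pairs joined SOD1, GPX1, GPX3, GPX4, PRDX1 and MT3. SOD1 and GPX4 had a Pearson r of 0.92 (permutation p = 1e-05, the smallest that 100000 resamples can give, adjusted p = 0.000225), and by ranks a Spearman rho of 0.75 (permutation p = 0.00131, adjusted p = 0.00842). Without LFC replicate 5 and HFC replicate 13 the r was 0.72. PRDX1 and MT3 had an r of 0.91 (permutation p = 1e-05, adjusted p = 0.000225) and a rho of 0.84 (permutation p = 6e-05, adjusted p = 0.0027), with an r of 0.83 without LFC replicate 5 and HFC replicate 14. The relation of SOD1 with MT3, at an r of 0.71 (permutation p = 0.00372, adjusted p = 0.0186) and a rho of 0.46 (permutation p = 0.0741, adjusted p = 0.128), fell to 0.16 without LFC replicate 5 and HFC replicate 13 and so rests on those libraries.

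MAP3K5 ran against SOD2 and MT3. With SOD2 its r was -0.74 (permutation p = 0.00077, adjusted p = 0.00693) and its rho -0.75 (permutation p = 0.00127, adjusted p = 0.00842), and the r was -0.69 without HFC replicates 14 and 16. With MT3 its r was -0.69 (permutation p = 0.00296, adjusted p = 0.0166) and its rho -0.76 (permutation p = 0.00102, adjusted p = 0.00842), and the r was -0.64 without LFC replicate 8 and HFC replicate 14. With group means removed these values were -0.65 and -0.72, so the 2 relations were also present within the groups. CAT and MAP3K5 had a rho of -0.69 (permutation p = 0.00431, adjusted p = 0.019) but an r of -0.43 (permutation p = 0.0919, adjusted p = 0.165), which was -0.21 with group means removed.

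**Figure D4:**
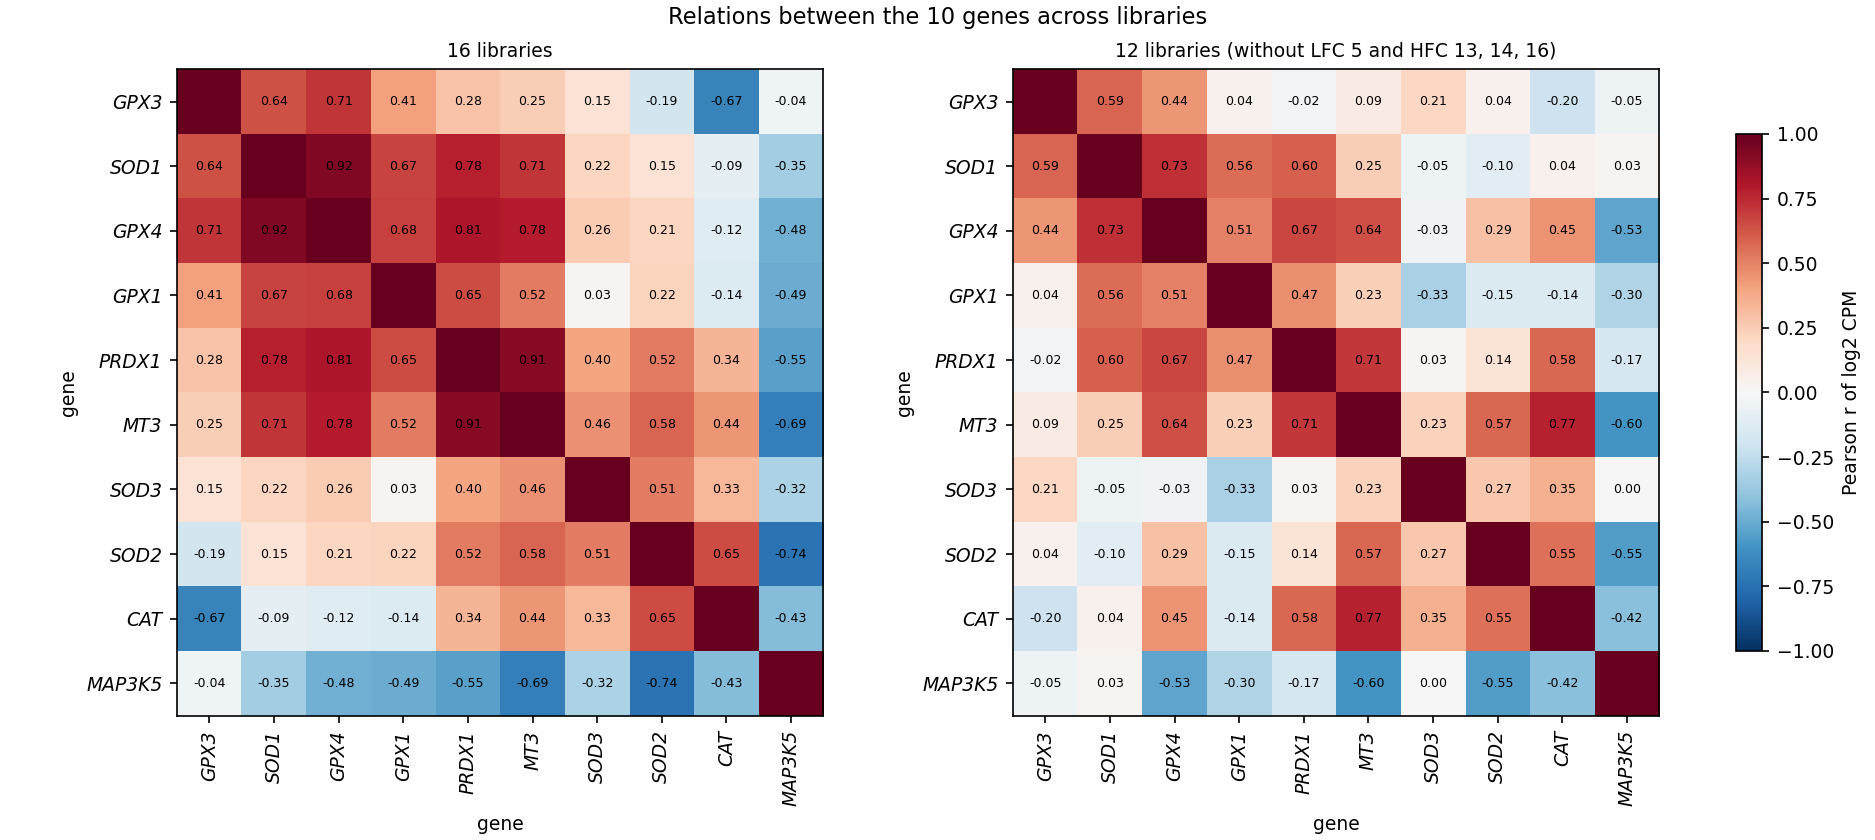
Pearson r of log2 CPM for each pair of the 10 genes, over 16 libraries (left) and over the 12 libraries other than LFC replicate 5 and HFC replicates 13, 14 and 16 (right), from -1 (blue) to 1 (red). SOD1, GPX4, GPX1, PRDX1 and MT3 form a positive block at left, with lower values at right (SOD1 with GPX4 0.92 and 0.73), and MAP3K5 is negative with SOD2 and MT3 in both.

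Levels of several of these genes moved with markers of pituitary cell types. In bulk tissue fewer cells of a type and less RNA per cell cannot be told apart. Of 110 pairs of a gene with the mean log2 CPM of one of 11 marker lists, 28 passed an adjusted p of at most 0.05 (permutation test as above, adjusted over the 110 pairs). The share of such pairs for other genes was not worked out.

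CAT followed the list of pituicytes and glia (GFAP, AQP4, NDRG2 and 6 other genes), cells of the posterior lobe, with an r of 0.78 (permutation p = 2e-05, adjusted p = 0.00055) and a rho of 0.82 (permutation p = 0.00017, adjusted p = 0.0066), and with an r of 0.71 without HFC replicates 14 and 16. It also followed the melanotroph list of the intermediate lobe (POMC, PCSK2, PAX7 and DRD2), with an r of 0.88 (permutation p = 0.00039, adjusted p = 0.00429) and a rho of 0.64 (permutation p = 0.00913, adjusted p = 0.0478), and with an r of 0.59 without HFC replicates 11 and 16. The summed level of the pituicyte and glia list was 219 to 609 CPM in LFC (median 280) and 271 to 1155 CPM in HFC (median 506), with 8 of 9 genes higher in HFC. That of the melanotroph list, mostly POMC, was 6056 to 77440 CPM in LFC (median 20020) and 23070 to 246400 CPM in HFC (median 47750), with all 4 genes higher in HFC. HFC replicate 16 had the highest sum of both lists. POMC is also made by corticotrophs of the anterior lobe: in LFC replicate 5, with the highest sum of LFC, PAX7 was at 0 and PCSK2 at 2.47 CPM, the lowest of LFC. The genes of the neuron list (NEFL, SYT1, SNAP25, AVP and OXT) did not all move together, as given below for MAP3K5. CAT also passed with that list (r = 0.68, permutation p = 0.00015, adjusted p = 0.00206, and rho 0.72, permutation p = 0.0023, adjusted p = 0.0281), with an r of 0.70 without HFC replicates 13 and 16. Against the anterior hormone list its r was -0.84 (permutation p = 0.00737, adjusted p = 0.0338) and its rho -0.29 (permutation p = 0.266, adjusted p = 0.486), but the r was -0.14 without HFC replicates 11 and 16 and so rests on them. Their part in the CAT difference was not tested.

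SOD2 followed the pituicyte and glia list as well, with an r of 0.84 (permutation p = 2e-05, adjusted p = 0.00055) and a rho of 0.80 (permutation p = 0.00033, adjusted p = 0.0088), and with an r of 0.77 without HFC replicates 14 and 16. It also followed the microglia, oligodendrocyte and neuron lists, with r of 0.73, 0.78 and 0.76 (permutation p = 2e-05 to 0.00115, adjusted p = 0.00055 to 0.0105) and rho of 0.86, 0.81 and 0.77 (permutation p = 5e-05 to 0.00073, adjusted p = 0.0055 to 0.0134), and with r of 0.79, 0.69 and 0.70 without the 2 farthest libraries. GPX3 followed the anterior hormone list (GH1, PRL, CGA, FSHB, TSHB and POMC), with an r of 0.87 (permutation p = 5e-05, adjusted p = 0.0011) and a rho of 0.70 (permutation p = 0.00375, adjusted p = 0.0317), and with an r of 0.65 without HFC replicates 11 and 16. In HFC replicate 16, where GPX3 was lowest, PRL, CGA, FSHB and TSHB were at 276.5, 1689, 515.5 and 0.0602 CPM, each the lowest of all libraries. POMC went the other way there, at 243000 CPM, the highest of all libraries, and GH1 lay within the range of the others at 11470 CPM. The summed anterior hormone list, which includes POMC, was 83900 to 186700 CPM in LFC and 93360 to 257000 CPM in HFC, with 5 of 6 genes lower in HFC. The highest sum was that of HFC replicate 16, so the sum and the mean log2 CPM of this list part in that library. What share of the GPX3 difference went with these cells was not tested.

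MT3 and PRDX1 followed the list of microglia and macrophages (C1QA, CSF1R, CX3CR1 and 7 other genes). For MT3 the r was 0.86 (permutation p = 2e-05, adjusted p = 0.00055) and the rho 0.79 (permutation p = 0.0004, adjusted p = 0.0088), and the r was 0.79 without LFC replicates 5 and 8. For PRDX1 the r was 0.80 (permutation p = 0.00015, adjusted p = 0.00206) and the rho 0.72 (permutation p = 0.00204, adjusted p = 0.0281), and the r was 0.72 without the same libraries. The summed list was 124 to 734 CPM in LFC (median 252), highest in LFC replicate 5, and 217 to 501 CPM in HFC (median 348), with 7 of 10 genes higher in HFC. With the neuron list MT3 had an r of 0.75 (permutation p = 0.00035, adjusted p = 0.00428) and a rho of 0.71 (permutation p = 0.00259, adjusted p = 0.0285), and PRDX1 an r of 0.63 (permutation p = 0.00738, adjusted p = 0.0338) and a rho of 0.60 (permutation p = 0.0156, adjusted p = 0.0603), with r of 0.70 and 0.58 without HFC replicates 13 and 16. MT3 also passed with the pituicyte and glia list (r = 0.63) and the oligodendrocyte list (r = 0.65), at permutation p-values of 0.0078 and 0.00509 (adjusted 0.0343 and 0.0295). Their rho values were 0.61 and 0.63 (permutation p = 0.0134 and 0.0105, adjusted 0.0567 and 0.0481), and without the 2 farthest libraries their r values were 0.60 and 0.62.

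MAP3K5 was lower where the mean log2 CPM of the neuron, microglia, oligodendrocyte and pituicyte lists was higher. Its r was -0.69 with the neuron list (permutation p = 0.00364, adjusted p = 0.025), which includes vasopressin and oxytocin of the nerve endings, and the rho was -0.66 (permutation p = 0.00606, adjusted p = 0.0375). Without HFC replicates 13 and 16 that r was -0.64. The neuron genes did not move together. In LFC replicate 5, where MAP3K5 was lowest of LFC, AVP and OXT were the highest of LFC (22.2 and 62.05 CPM). SYT1 and SNAP25 were the lowest of LFC there (14.4 and 147.7 CPM). In HFC replicate 14, AVP and OXT were at 44.9 and 64.5 CPM (HFC medians 19.8 and 18.1), but SNAP25 was the lowest of HFC at 177.9 CPM. With the microglia list the r was -0.68 (permutation p = 0.00386, adjusted p = 0.025) and the rho -0.64 (permutation p = 0.0101, adjusted p = 0.0481), with -0.56 left without LFC replicates 5 and 8. With the pituicyte and glia list the r was -0.65 (permutation p = 0.0066, adjusted p = 0.0337) and the rho -0.60 (permutation p = 0.0159, adjusted p = 0.0603), and with the oligodendrocyte list the r was -0.68 (permutation p = 0.00448, adjusted p = 0.0274) and the rho -0.54 (permutation p = 0.0327, adjusted p = 0.106). Without HFC replicates 14 and 16 the first r was -0.56, and without HFC replicates 13 and 14 the second was -0.49. Over the 12 libraries left without LFC replicate 5 and HFC replicates 13, 14 and 16 these 4 values of r lay between -0.46 and -0.33. The summed neuron list was 408 to 568 CPM in LFC (median 476) and 422 to 662 CPM in HFC (median 503), with 4 of 5 genes higher in HFC. The oligodendrocyte list was 94.1 to 191 CPM in LFC (median 120) and 81.1 to 468 CPM in HFC (median 115), where HFC replicates 13 and 14 held 377 and 468 CPM and no other HFC library more than 163 CPM. All 3 of its genes that passed the filter on low counts were higher in HFC. The share of the MAP3K5 difference that goes with these cells was not tested.

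Of the 5 other lists, that of the endothelium had no pair that passed and the others had 8 (Pearson permutation p = 0.00051 to 0.0106, adjusted 0.0051 to 0.0416, and rho 0.50 to 0.70 with adjusted p = 0.0317 to 0.141). The folliculostellate list went with GPX3 (r = 0.82) and GPX4 (r = 0.69), the fibroblast list with CAT (r = 0.59) and SOD2 (r = 0.70), the smooth muscle list with SOD2, PRDX1 and MT3 (r = 0.65 to 0.72), and the erythrocyte list with PRDX1 (r = 0.62). Without the 2 farthest libraries the r of SOD2 with the smooth muscle list was 0.31, that of PRDX1 with the erythrocyte list 0.35 and that of GPX3 with the folliculostellate list 0.42. The other pairs of these lists then lay between 0.48 and 0.65. GPX3 also ran against the melanotroph list (r = -0.75, permutation p = 0.00163, adjusted p = 0.0138, and rho -0.49, permutation p = 0.0581, adjusted p = 0.145), but its r was -0.25 without HFC replicates 11 and 16 and so rests on them. No gene of the 11 lists was at 0 in all 16 libraries.

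Of 9 further superoxide and peroxide enzymes, 24 genes of the glutathione and thioredoxin systems and 19 regulators and targets of the transcription factor NRF2, which switches on antioxidant genes, 52 in all, 25 lay higher and 27 lower in HFC and 0 had an unadjusted p under 0.05 in edgeR, beside 5.82% of all genes. None was called. DESeq2 gave 2 at an unadjusted p under 0.05, beside 5.99% of all genes in that fit. Their log2 fold changes had a median of -0.01. Without LFC replicate 5 the count was 6 of 52, beside 11.9% of all genes in that fit.

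Of the peroxide enzymes, GPX2, the glutathione peroxidase best known from the gut, had the lowest value, -0.78 (SE 0.37, unadjusted p = 0.0506 and adjusted p = 0.857 in edgeR). It ranged from 4.82 to 20.8 CPM in LFC, highest in LFC replicate 5, and from 0.723 to 6.98 CPM in HFC, lowest in HFC replicate 16. Its exact permutation p was 0.041, and its unadjusted edgeR p was under 0.05 in 9 of 16 fits that left out a library, with log2 fold changes of -0.87 to -0.48 (the last without LFC replicate 5) and -0.62 without HFC replicate 16. PRDX3, the mitochondrial peroxiredoxin, had the highest, 0.25 (SE 0.15). Among glutathione and thioredoxin genes the values ran from -0.49 (SE 0.45) for SRXN1, which repairs over-oxidised peroxiredoxins, to 1.48 (SE 0.78, adjusted p = 0.909 in edgeR) for GGT5, which cleaves glutathione conjugates. GGT5 was at 2.48 (SE 0.70, adjusted p = 0.338 in edgeR) without LFC replicate 5 and at 1.07 without HFC replicate 16. TXN, the thioredoxin that binds MAP3K5, had 0.13 (SE 0.16). NFE2L2, which encodes NRF2, had 0.29 (SE 0.14, adjusted p = 0.885 in edgeR) with all 8 HFC libraries over the mean of LFC on the log2 CPM scale, an exact permutation p of 0.049, and 0.16 without HFC replicate 16, where it was highest at 144.6 CPM. KEAP1, the NRF2 inhibitor, had 0.09 (SE 0.16). The NRF2 list ran from -0.24 (SE 0.14) for MAFG, a binding partner of NRF2, to 0.75 (SE 0.50) for the glutathione transferase GSTM3.

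In the MAP3K5 cascade, 24 genes of related kinases, adaptors, downstream kinases and phosphatases, 13 lay higher and 11 lower in HFC, and 0 were called. An unadjusted p under 0.05 in edgeR was seen for 2 (8.33%), both higher, beside 5.82% of all genes tested, or 4.29% for higher in HFC. With 24 genes the count of 2 is near that share. MAP2K6, a kinase that activates p38, ranged from 1.95 to 4.19 CPM in LFC (median 3.21) and from 2.55 to 5.22 CPM in HFC (median 4.55). Its log2 fold change was 0.43 (SE 0.20, unadjusted p = 0.0452 and adjusted p = 0.850 in edgeR), with an unadjusted p under 0.05 in 4 of 16 fits that left out a library. DUSP6, a phosphatase of ERK kinases, ranged from 14.3 to 37.7 CPM in LFC and from 18.9 to 112.8 CPM in HFC, highest in HFC replicate 16. Its log2 fold change of 0.74 (SE 0.34, unadjusted p = 0.0431 and adjusted p = 0.845 in edgeR) was 0.29 without that library. The exact permutation p was 0.139 for DUSP6 and 0.041 for MAP2K6. MAPK11, a p38 kinase, had the lowest value, -0.30 (SE 0.29).

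No other listed metallothionein had a named row. Of 4 zinc genes tested, 0 had an unadjusted p under 0.05 in edgeR and 0 were called. They ran from -0.15 (SE 0.23) for MTF1, the metal-responsive transcription factor, to 0.07 (SE 0.28) for SLC30A3, a zinc transporter. The list of 11 genes that the study had named for oxidative stress, which was picked from these same libraries and is no independent evidence, includes CAT, MAP3K5 and MT3. Of the 11, 5 (45.5%) had an unadjusted p under 0.05, and none was called. Beside CAT and MAP3K5 these were CYP1B1, a cytochrome P450 of steroid metabolism, at 1.50 (SE 0.51), and the orphan nuclear receptors NR4A2 at -0.61 (SE 0.25) and NR4A3 at -1.25 (SE 0.45). Their exact permutation p-values were 0.0594, 0.0361 and 0.0204. The others were APOE at 0.64 (SE 0.53), APOD at 0.52 (SE 0.71), RBPMS at 0.66 (SE 0.37), AIF1 at 0.57 (SE 0.46) and SPHK1 at -0.65 (SE 0.46).

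**Figure D5:**
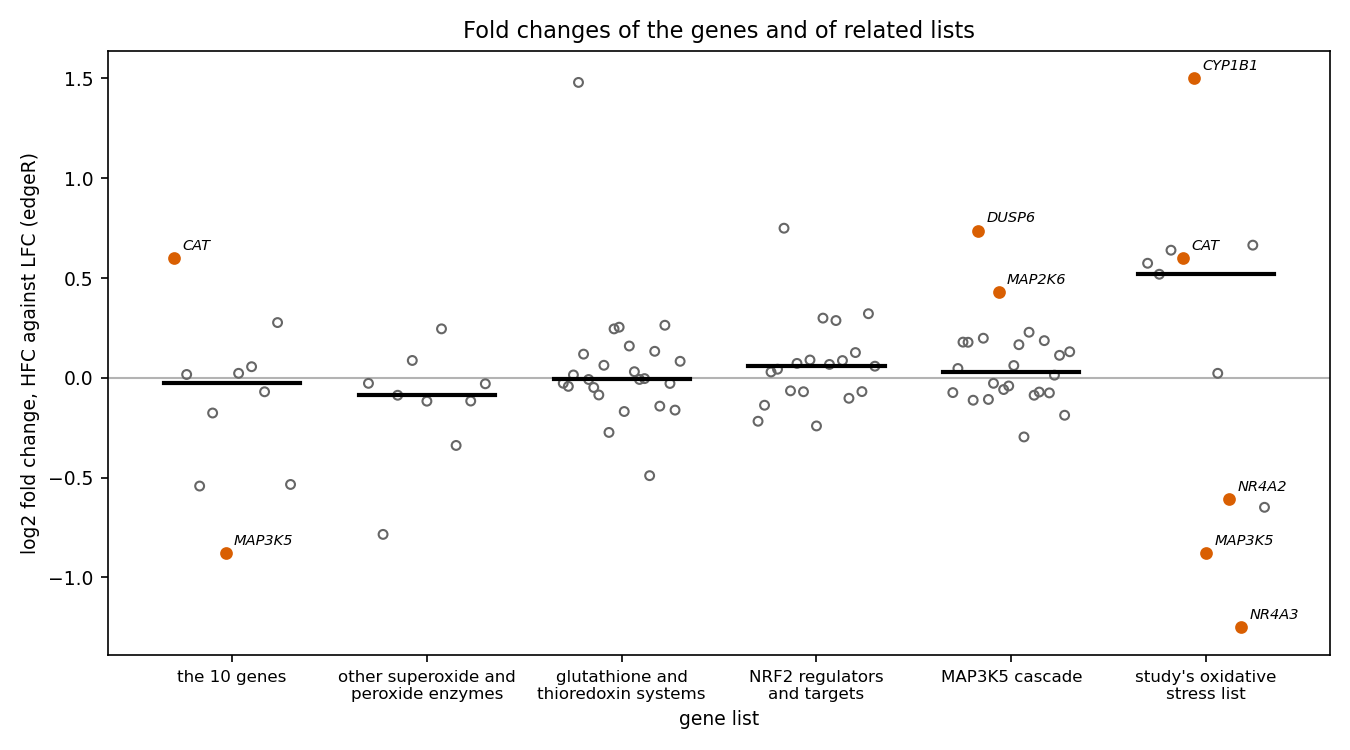
edgeR log2 fold changes of HFC against LFC for the 10 genes and for 5 related lists, 1 point per gene, filled orange where the unadjusted p is under 0.05 and open otherwise, with the list median as a black line. No gene was called after adjustment. Apart from CAT and MAP3K5, the orange points lie in the MAP3K5 cascade list (2 genes) and in the list the study chose on these libraries.

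The genes whose level across the 16 libraries was most like that of each of the 10 were sought among 13272 named genes, by Pearson r of log2 CPM. For MAP3K5 they were AHI1 (r = 0.90), SGCZ (r = 0.89) and NDST3 (r = 0.88), with log2 fold changes of -0.47, -0.78 and -0.64. AHI1 lies on the same chromosome, 28566397 to 28762381, at 965901 bases from MAP3K5. Genes compared at shorter distances had r from -0.48 to 0.74 with MAP3K5, and a part of position was not tested.

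For CAT the most alike were PDGFC (r = 0.94), GAS7 (0.93) and ISM1 (0.92), and over the 12 libraries these were 0.91, 0.73 and 0.83. For GPX3 they were CD99L2 (r = 0.95), CRELD1 (0.94) and UPP1 (0.94), for MT3 S100A13 (0.96), S100A16 (0.95) and DBI (0.95), and for PRDX1 NDUFC2 (0.95), CCDC34 (0.95) and DUS2 (0.94). SOD1 was most like TPRG1L and TBCB (r of 0.98 each) and GPX4 most like B9D1, BAX and AP2S1 (r of 0.98 each). SOD2 went with CCDC43, SYNC and ACADL (r = 0.91 to 0.92). The 2 most variable genes had the lowest top values, SOD3 with PDYN, COL1A2 and CD4 and GPX1 with ECD, POLR3K and EFTUD2 (r = 0.85 to 0.86).

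Reads were counted without strand, so reads of overlapping genes are uncertain. By the deposited positions CAT shares 2121 bases with ABTB2, SOD1 2225 with SCAF4, GPX3 3060 with TNIP1, MAP3K5 2915 with PEX7 and PRDX1 591 with AKR1A1 and 646 with MMACHC. GPX4 shares 3474 of its 3475 bases with SBNO2 and so, by these positions, lies almost wholly within it. The RefSeq gene annotation of the same assembly showed no gene overlapping GPX3, GPX4 or MAP3K5, so for these the annotations differ. Levels of SBNO2 and TNIP1 were not compared with those of GPX4 and GPX3. Over the 16 libraries PEX7 had an r of -0.15 with MAP3K5 and a log2 fold change of 0.04 (SE 0.15), and ABTB2 had an r of 0.34 with CAT and 0.06 (SE 0.20). AKR1A1 had an r of 0.67 with PRDX1, and SCAF4 one of -0.81 with SOD1.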

How the data were processed

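RNA of whole pituitaries of 16 unrelated gilts, 1 library each, was sequenced by the authors from a poly(A) kit without strand, as single-end reads with repeat runs. The authors deposited counts per Ensembl gene, not normalised, 1 column per library. Their methods name FastQC, Flexbar, STAR and RSEM on Sscrofa11.1, and the submitters' processing notes name FastQC, STAR, RSEM, DESeq2 and the same build. A second deposited table holds the authors' group means, folds, log2 folds and p-values, which were not used, and gene positions and symbols, which were.

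The counts of all libraries were fitted with edgeR 4.0.16 in R 4.3.3 (glmQLFit, glmQLFTest, TMM scaling, filterByExpr, 1 group factor). The filter removed 11561 genes. Calls took a Benjamini-Hochberg adjusted p of at most 0.05 over all genes tested and a fold of at least 1.3. Log2 CPM used a prior count of 2. Exact permutation tests ran over the 12870 assignments of 8 of 16 libraries. Alternatives were DESeq2 1.42.0, limma-voom (limma 3.58.1), other scalings, filters, a robust fit, no fold minimum and fewer libraries. The scripts were tested on simulated data. Counts of 56 pairs of libraries of a group gave chi-square values of at least 27.1 per degree of freedom, so none was taken as a duplicate.

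The 10 genes, the lists and the tests were chosen with earlier results of these data known. Named beside the 10 were list genes at an unadjusted p under 0.05, the highest and lowest log2 fold change of each list, TXN, KEAP1, NFE2L2, the study's oxidative stress list, marker genes where their list is described, and the 3 genes most like each of the 10, of which 1 is not reported here. The overlapping genes fall outside this rule and were named after their values were seen.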

Additional observations from a re-analysis of the deposited data

Results flagged for a closer look

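In each group, the highest and lowest library were compared with the rest by Dixon's ratio, for the 10 genes and the 11 marker list means on the log2 CPM scale. Chance flags about 1 in 20 groups, which is 2.1 of the 42 checks, and 9 stood apart. LFC replicate 5 was the high library for 5 genes. Its log2 CPM was 8.79 for SOD1, where the other LFC libraries lay between 7.35 and 7.85, and 12.11 for GPX3, where they lay between 10.40 and 11.15. It was 9.51 for GPX4 (others 7.19 to 7.83), 8.10 for PRDX1 (others 6.45 to 6.99) and 10.47 for MT3 (others 6.87 to 8.12). CAT was high in HFC replicate 16 at 8.75, with the other HFC libraries between 6.77 and 7.39. In the same library the mean of the anterior hormone list was low at 9.46, with the others between 11.65 and 13.21. The summed CPM of that list was the highest of all libraries there, mostly from POMC. The fibroblast list mean was high in LFC replicate 7 at 5.94 (others 3.91 to 4.74), and the smooth muscle list mean in HFC replicate 14 at 5.70 (others 1.35 to 3.28). All 5 smooth muscle list genes were the highest of HFC in that library, but DES alone made 1340 of the summed 1442 CPM. ACTA2, MYH11 and TAGLN were at 32.2, 14.9 and 40.8 CPM there, below their 52.4, 18.2 and 111.9 CPM in LFC replicate 5.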

How the results depend on the processing

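No paired analysis was possible because the groups share no replicate number. MAP3K5 stayed lower in HFC in all fits with another test, scaling, filter or set of libraries, and CAT, SOD2 and GPX3 kept their direction in all of them too. DESeq2 called 20 genes where edgeR called 0, and none of the 10 genes was called in any fit. At an unadjusted p under 0.05 (2 of the 10 genes in the report), limma-voom and the 12 libraries left 1, beside 3.88% and 4.35% of all genes in those fits. Upper quartile scaling and the 14 libraries (LFC replicate 5 and HFC replicate 14 left out) gave 3, beside 5.85% and 8.23%. Single libraries left out gave 1 to 4. The count was 1 without HFC replicate 16 (4.1% of all genes) and 4 without LFC replicate 5 (11.9%) or HFC replicate 15 (6.95%). The count over the 52 antioxidant pathway genes was 0 in the report. It was 2 with DESeq2 (5.99% of all genes in that fit) and 2 with total count scaling (5.31%). Without a filter it was 1 (7.09%), and with at least 10 counts in every library 1 (5.19%). With 14 libraries it was 3 (8.23%), with 12 it was 2 (4.35%), and single libraries left out gave 0 to 6, the last without LFC replicate 5 (11.9%). The cascade count of 2 was 0 with limma-voom, 1 with RLE scaling, total count scaling, no filter or 14 libraries, 0 with 12 libraries and 0 to 2 with single libraries left out. With RLE scaling the share over all genes was 5.71%, and for the other named fits it is given above. By the exact permutation test 2 genes had a p under 0.05, and 1 with 14 libraries. The log2 fold change reversed for SOD1 (0.16) and GPX4 (0.24) with 14 libraries and for GPX4 (0.16) with 12, and the difference in mean log2 CPM with 14 libraries for SOD1 (0.10), SOD3 (-0.057) and GPX4 (0.20). Leaving out single libraries gave -0.23 to 0.14 for SOD1, -0.88 to 0.32 for SOD3, -0.22 to 0.66 for GPX1, -0.30 to 0.25 for GPX4, -0.012 to 0.31 for PRDX1, -0.11 to 0.82 for MT3 and -0.20 to 0.28 for the median of the 10. The cause was not tested. The counts of related pairs were 16 for 13 between the genes and 29 for 28 with the marker lists once group means were removed, the second chosen after seeing the data. Other scalings moved the median of all genes by less than 0.1. The biological coefficient of variation of 38.6% limits what 8 libraries a group resolve.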
